A study of Mus musculus with 3 samples.

Results

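The genes described are the transcriptional coactivators Yap1 and Wwtr1 (which encodes TAZ), the TEAD transcription factors Tead1, Tead2, Tead3 and Tead4 that bring them to DNA, and 4 genes long used as readouts of their activity, Ankrd1, Cyr61, Ctgf and Amotl2. They were chosen by symbol, and all 10 were found among the 15529 named genes of 3 deposited expression tables. These genes, and the gene lists set beside them below, were chosen with earlier results of these data known. Messenger RNA was sequenced from 3 mouse tumour cell lines, with a single library for each. The skin melanoma lines were B16-F1, of strain C57BL/6J, and Cloudman S91, of strain DBA. The mammary carcinoma line was 4T1, of strain BALB/cfC3H. DMEM was the medium of the melanoma lines and RPMI that of 4T1, all with serum and with no treatment named, so tumour type, strain and medium cannot be told apart between 4T1 and the others.

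YAP and TAZ do not bind DNA themselves. In the nucleus they join a TEAD factor, and when the Hippo kinases MST (Stk3 and Stk4) and LATS (Lats1 and Lats2) are active they are phosphorylated, held in the cytoplasm and degraded. Much of this control acts on the proteins, which these data do not measure. In cultured epithelial and mesenchymal cells the pathway is known to respond to cell density, attachment and stiffness.

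The libraries summed to between 7412840 and 9098072 expected counts (estimated reads per gene). Levels are the deposited FPKM, reads scaled to the length of the transcript and to the depth of the library. With no replicates, every difference is between libraries and has no test. The 95% intervals given are exact intervals from the counts and cover counting error only. In such bulk libraries, fewer cells expressing a gene and less RNA per cell cannot be told apart. Of 7 melanocyte markers, 7 reached FPKM 1 in each melanoma library and 2 in 4T1, whereas all 6 epithelial markers reached it in 4T1, 1 in Cloudman S91 and 0 in B16-F1. The largest differences were in the pigment genes Tyrp1, Dct and Pmel, at 0 to 0.11 in 4T1 and 2291 to 3290 in the melanoma libraries, and in the keratins Krt18, Krt8 and Krt7, at 401 to 752 in 4T1 and at most 0.10 in the melanoma libraries. The melanocyte marker Tyr did not separate 4T1 (5.74) from Cloudman S91 (4.99), while B16-F1 had 102.

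TEAD factors recognise a short element whose core reads GGAATG, or CATTCC on the opposite strand. RefSeq promoter sequence (build GRCm38.p6) was matched for 7 of the 10 genes, and the 250 bases before each annotated start were searched on both strands. None was matched for Ctgf, Tead1 and Tead4, so these were not searched. The 250 bases of Ankrd1 (chr19:36119845-36120094, minus strand) and Cyr61 (chr3:145649986-145650235, minus strand) are shown because these are the most abundant of the target genes in 4T1. They read 5′ to 3′ on the strand of the gene, and capitals mark the hexamer.

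Ankrd1: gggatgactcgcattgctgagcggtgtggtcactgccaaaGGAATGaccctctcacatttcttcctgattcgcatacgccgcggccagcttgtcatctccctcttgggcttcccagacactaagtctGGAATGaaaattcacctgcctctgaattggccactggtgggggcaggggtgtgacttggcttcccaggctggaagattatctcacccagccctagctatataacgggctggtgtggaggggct
Cyr61: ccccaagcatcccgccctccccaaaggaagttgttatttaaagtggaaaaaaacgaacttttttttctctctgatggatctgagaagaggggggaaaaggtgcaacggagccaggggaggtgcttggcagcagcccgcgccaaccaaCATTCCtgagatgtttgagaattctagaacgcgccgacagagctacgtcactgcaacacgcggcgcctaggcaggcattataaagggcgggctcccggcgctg

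The Ankrd1 window held the hexamer at 2 places, starting 210 and 123 bases before the start, and the Cyr61 window held it once, 103 bases before. For comparison, 30 bases around the hexamer are shown for the other genes that held it. These are Amotl2 (chr9:102717727-102717756, plus strand), Yap1 (chr9:8004720-8004749, minus strand), Wwtr1 (chr3:57576029-57576058, minus strand) and Tead3 (chr17:28350702-28350731, minus strand, where 2 copies stand close together). The Amotl2 and Tead3 stretches lie inside the gene spans given below, before internal starts. The sequence before the outermost Amotl2 start was not searched.

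Amotl2: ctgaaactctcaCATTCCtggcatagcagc
Yap1: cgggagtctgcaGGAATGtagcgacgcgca
Wwtr1: ggtaaactcaaaGGAATGcagataggcgct
Tead3: gccgggctCATTCCgtaCATTCCggccatc

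In all, 6 of the 7 genes held the hexamer in at least 1 of their windows, and Tead2 did not. Over all 27025 genes with a promoter in the RefSeq table the share was 14.4%. Of all 32851 windows, 12.6% held it at least once and 1.02% held it at 2 or more places, as the Ankrd1 window did. Genes whose levels were close in the 3 lines (Yap1, Wwtr1) held it as well as genes far apart (Ankrd1, Cyr61), so its presence did not separate them. The AP-1 heptamer TGAGTCA and the CArG box, the element of serum response factor, both searched on both strands, were in none of these 7 genes' windows, against 5.16% and 1.62% of all genes. A match is only a match of letters in these windows.

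Yap1 and Wwtr1 were well expressed in all 3 libraries. Yap1 (chromosome 9, 7931999 to 8004638) had FPKM 55.3 in B16-F1 (95% interval 52.9 to 57.7) and 39.0 in Cloudman S91 (36.8 to 41.2), and 36.3 in 4T1 (34.4 to 38.3). It was highest in B16-F1, and the levels in Cloudman S91 and 4T1 were within counting error of each other, with a ratio of 1.07 (0.992 to 1.16). Wwtr1 (chromosome 3, 57455644 to 57575910) had FPKM 17.1 in B16-F1 and 19.9 in Cloudman S91, and 24.8 in 4T1, the reverse order. The 4T1 level of Wwtr1 was 1.45 times that of B16-F1 (1.32 to 1.60) and 1.25 times that of Cloudman S91 (1.13 to 1.37), although in the latter pair the order turned when the tables were rescaled to TPM, in which every library sums to the same total, as given in the section on processing.

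The balance of the coactivators therefore differed between the libraries more than their sum. Yap1 was 3.24 times as abundant as Wwtr1 in B16-F1 and 1.96 times in Cloudman S91, and 1.46 times in 4T1. Their summed FPKM was 72.4, 58.9 and 61.1 in the same order.

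Tead1 and Tead2 made up most of the TEAD messenger RNA in each library. Tead1 (chromosome 7, 112679356 to 112906784) had FPKM 13.9 in B16-F1 and 19.8 in Cloudman S91, and 15.0 in 4T1. It was highest in Cloudman S91, and B16-F1 and 4T1 were within counting error (ratio 0.927, interval 0.857 to 1.004). Tead2 (chromosome 7, 45215792 to 45233468) had 19.3 in B16-F1 and 8.89 in Cloudman S91, and 32.6 in 4T1, each apart from the others. Its level in 4T1 was 3.66 times that in Cloudman S91 (3.04 to 4.45), the widest gap of any coactivator or TEAD gene among the 3 libraries.

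Tead3 and Tead4 were low. Tead3 (chromosome 17, 28331671 to 28350805) had FPKM 1.80 in B16-F1, from 42 counts, 5.0 in Cloudman S91 and 4.86 in 4T1. It was lowest in B16-F1, at 0.370 of the 4T1 level (0.253 to 0.533), and did not differ beyond counting error between Cloudman S91 and 4T1. Tead4 (chromosome 6, 128227143 to 128300813) had 5.30 in B16-F1 and 4.08 and 4.28 in Cloudman S91 and 4T1, and no pair was apart beyond counting error.

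Statements that a factor stayed within counting error against 4T1 hold for FPKM, whose sum over all rows was 466033 in B16-F1 and 439437 in Cloudman S91, but 601329 in 4T1. TPM removes that gap, and under it the difference in log2(TPM + 1) against 4T1 was 0.55 for Yap1, 0.45 for Tead3 and 0.34 for Tead4 in Cloudman S91, and 0.25 for Tead1 and 0.61 for Tead4 in B16-F1. Counting intervals were not computed on that scale, so which of these lie beyond counting error was not assessed.

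The 4 TEAD genes summed to FPKM 40.3 in B16-F1 and 37.8 in Cloudman S91, and 56.8 in 4T1. Tead2 contributed 47.8% of that sum in B16-F1 and 23.5% in Cloudman S91, and 57.4% in 4T1. Tead1 contributed 34.6%, 52.5% and 26.5% in the same order. The leading TEAD gene was therefore Tead2 in B16-F1 and 4T1 and Tead1 in Cloudman S91.

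**Figure D1:**
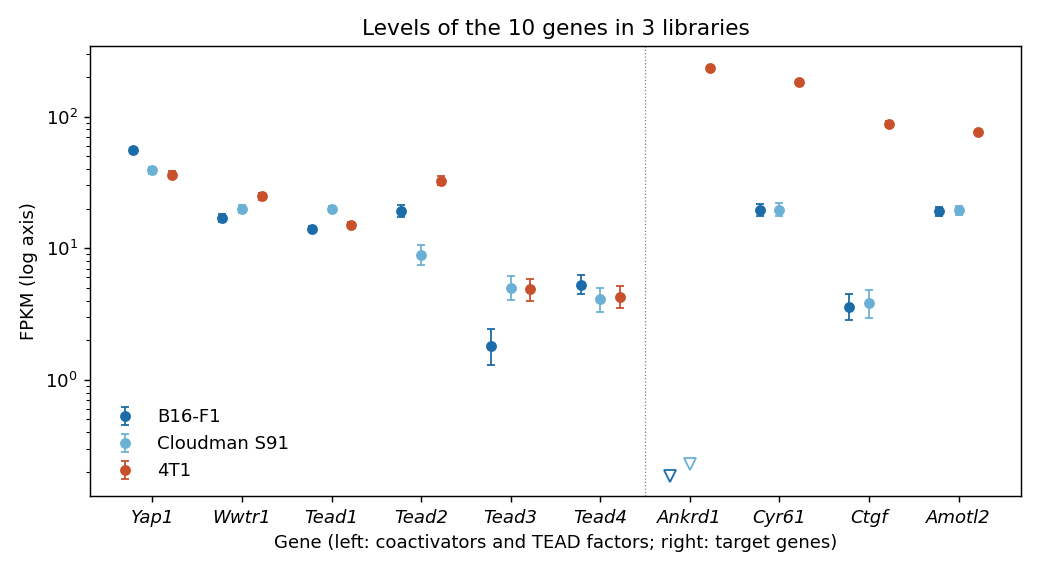
FPKM of the 10 genes on a log axis in B16-F1, Cloudman S91 and 4T1, 1 library each, with bars for the exact 95% counting interval. Open triangles mark Ankrd1 in the melanoma tables, which do not list it, at the FPKM that 3 counts would give; the 4 target genes at the right are highest in 4T1, while the factors at the left lie closer together.

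The target genes had higher levels in 4T1 than in either melanoma library. Ankrd1 (chromosome 19, 36111965 to 36119844), a nuclear and sarcomeric ankyrin repeat protein best known from heart muscle, had FPKM 233 in 4T1 (225 to 241) from 3547 counts. Neither melanoma table lists it, and tables that do not list a gene were taken as 0. With 3 counts as the limit that a count of 0 allows, per library, its level was at most 0.187 in B16-F1 and 0.229 in Cloudman S91. The 4T1 level was then at least 1246-fold higher than in B16-F1 and at least 1015-fold higher than in Cloudman S91.

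Cyr61 and Ctgf encode secreted CCN proteins of the matrix that bind integrins, named Ccn1 and Ccn2 in RefSeq. Cyr61 (chromosome 3, 145646971 to 145649985) had FPKM 19.6 in B16-F1 (17.6 to 21.8) and 19.7 in Cloudman S91 (17.5 to 22.1), and 183 in 4T1 (177 to 189). The 4T1 level was 9.32 times that of B16-F1 (8.35 to 10.4) and 9.31 times that of Cloudman S91 (8.25 to 10.5). Ctgf (chromosome 10, 24595442 to 24598683) had 3.58 in B16-F1 from 77 counts and 3.82 in Cloudman S91 from 67 counts, and 87.7 in 4T1 from 1851 counts.

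For Ctgf the 4T1 level was 24.5 times that of B16-F1 (19.5 to 31.2) and 23.0 times that of Cloudman S91 (18.0 to 29.7). Because Ctgf stood further apart than Cyr61, the ratio of Cyr61 to Ctgf was 5.49 in B16-F1 and 5.15 in Cloudman S91, and 2.09 in 4T1.

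Amotl2 encodes an angiomotin family scaffold of cell junctions that binds YAP and restrains it, and is itself a YAP target. Amotl2 (chromosome 9, 102717091 to 102733418) had FPKM 19.1 in B16-F1 and 19.4 in Cloudman S91, and 76.6 in 4T1. Its 4T1 level was 4.02 times that of B16-F1 (3.70 to 4.37) and 3.95 times that of Cloudman S91 (3.62 to 4.32), the smallest gap of the 4 target genes.

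Between the melanoma libraries the 3 listed target genes were within counting error on the FPKM scale. The ratio of B16-F1 to Cloudman S91 was 0.999 for Cyr61 (0.853 to 1.17), 0.937 for Ctgf (0.667 to 1.32) and 0.983 for Amotl2 (0.881 to 1.10). The interval for Ctgf, which rests on few reads, is the widest of these. The result for Amotl2 depends on the scaling, since its log2 difference was -0.02 in FPKM and -0.18 under median-of-ratios scaling. On the FPKM scale Yap1, Wwtr1, Tead1, Tead2 and Tead3 each had an interval that left out 1 in this pair.

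Within a library the order of the 10 genes also differed. In 4T1 all 4 target genes lay above every coactivator and TEAD gene, in the order Ankrd1, Cyr61, Ctgf, Amotl2, with Yap1 next. Ankrd1 lay above 97.8% of the genes listed for 4T1, Cyr61 above 97.1%, Ctgf above 93.2% and Amotl2 above 92.0%. In B16-F1 Yap1 was highest of the 10, followed by Cyr61, Tead2, Amotl2 and Wwtr1, whose neighbouring intervals overlap. In Cloudman S91 Yap1 was again highest, and Wwtr1, Tead1, Cyr61 and Amotl2 lay between 19.4 and 19.9 with overlapping intervals. Ctgf lay above only 34.2% of listed genes in B16-F1 and 35.8% in Cloudman S91.

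Set against the coactivators, the summed FPKM of the 4 target genes was 0.584 of the Yap1 and Wwtr1 sum in B16-F1 and 0.728 in Cloudman S91, and 9.49 in 4T1. Without Ankrd1 the 4T1 value was 5.68. These ratios within a library do not depend on how the libraries are scaled to each other.

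**Figure D2:**
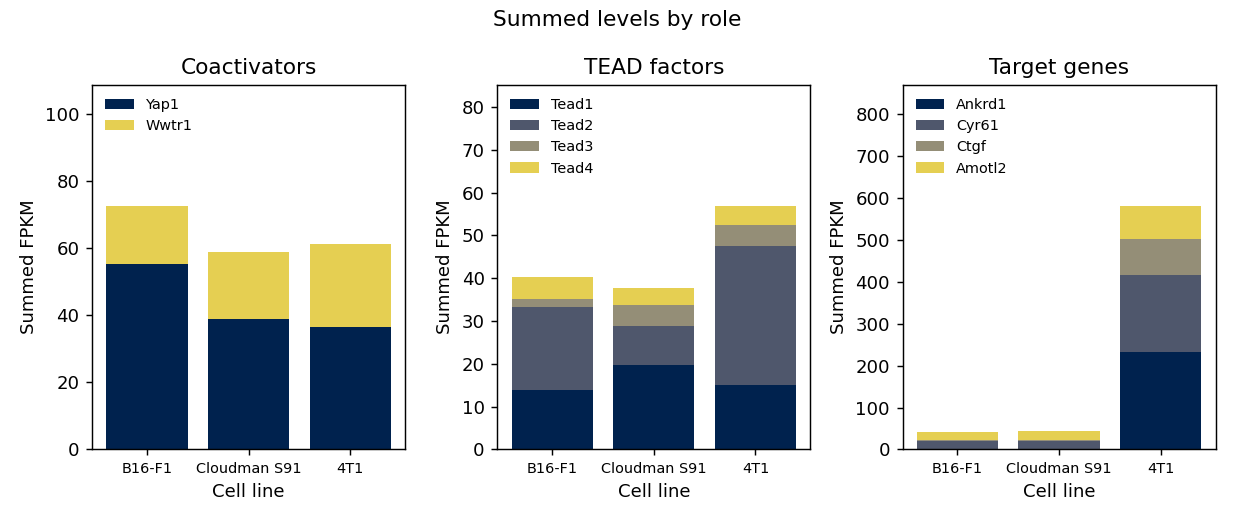
Summed FPKM of the coactivators, of the TEAD genes and of the target genes in each library, stacked by gene on axes that start at 0 and differ between panels. Coactivators sum to between 58.9 and 72.4 and TEAD genes to between 37.8 and 56.8, whereas target genes sum to 580.1 in 4T1 against 42.3 and 42.9 in the melanoma libraries.

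A size threshold took the place of a test. A gene with FPKM 1 or more in either library of a pair was called when log2(FPKM + 1) differed by 2 or more, which is 4-fold on that scale and less than the true fold of a low gene. For B16-F1 minus 4T1, 3 of the 10 genes were higher in 4T1 (Ankrd1 -7.87, Ctgf -4.28, Cyr61 -3.16), against 7.43% of the 11547 genes compared, and 0 were higher in B16-F1, against 6.31%. For Cloudman S91 minus 4T1 the same 3 were higher in 4T1 (-7.87, -4.20 and -3.15), against 8.01% of 11657, and 0 were higher in Cloudman S91, against 7.47%. These comparisons share the 4T1 library and are not independent. For B16-F1 minus Cloudman S91, 0 of the 9 genes compared were called in either direction, against 2.33% higher in B16-F1 and 3.19% higher in Cloudman S91.

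Amotl2 fell just short of the rule, at -1.95 for B16-F1 and -1.93 for Cloudman S91 minus 4T1. The median difference of the 4 target genes was -3.72 for B16-F1 and -3.68 for Cloudman S91 minus 4T1, beside 0.03 and -0.14 over all genes compared. The median of the 6 coactivator and TEAD genes was -0.31 and -0.01. In that group the differences ran from -1.07 (Tead3) to 0.59 (Yap1) for B16-F1 and from -1.76 (Tead2) to 0.38 (Tead1) for Cloudman S91. Rescaling to TPM moved the medians over all genes to 0.38 and 0.31, and under it Ankrd1, Ctgf and Cyr61 still passed the rule in both comparisons.

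With a rule of 2-fold, a difference of at least 1, Tead3 and Amotl2 joined the genes higher in 4T1 than B16-F1 (5 of 10, against 18.9% of all genes). Tead2 and Amotl2 joined those higher in 4T1 than Cloudman S91 (5 of 10, against 22.5%). Between the melanoma libraries Tead2 was then higher in B16-F1 (1 of 9, against 10.9%) and Tead3 in Cloudman S91 (1 of 9, against 9.11%). With this threshold 0 of the 10 were higher in B16-F1 than 4T1, against 18.5% of all genes, and 0 in Cloudman S91, against 18.0%.

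**Figure D3:**
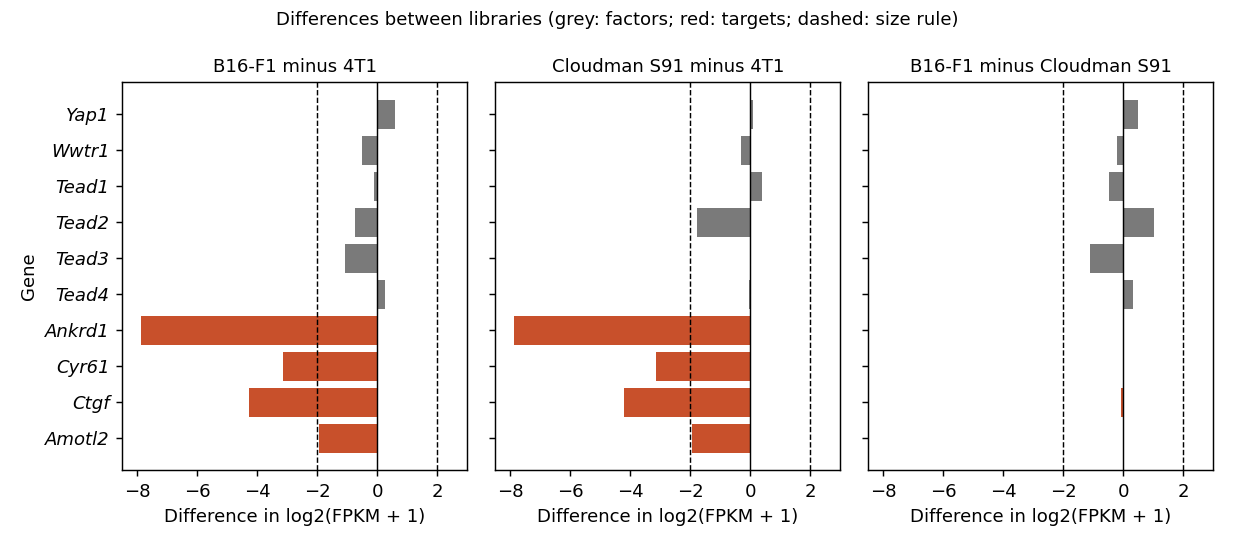
Difference in log2(FPKM + 1) of each gene for 3 pairs of libraries, with grey bars for coactivators and TEAD factors, red bars for target genes and dashed lines at the size rule of 2. Red bars reach from -1.93 to -7.87 against 4T1 and lie between -0.07 and 0 between the melanoma libraries, where Ankrd1 is listed in neither.

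Relatives of the target genes in their own families had other patterns. Of the other 4 CCN genes, Nov had FPKM 0.05 in B16-F1 and 2.62 in Cloudman S91, and 0.73 in 4T1, Wisp1 had 7.92, 2.87 and 5.82, and Wisp2 and Wisp3 were below 1 in every library. None of them passed the size rule in any pair. In the muscle ankyrin repeat family, Ankrd2 had 6.29 in B16-F1 and 0.80 in Cloudman S91, and was not listed in 4T1, the opposite side from Ankrd1. Ankrd23 had 6.22, 7.60 and 7.71.

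Ankrd1 is abundant in muscle, so muscle markers were examined. Of 8 such markers only Tnnt2, cardiac troponin T, was listed in 4T1, at 159 against 3.05 in B16-F1 and 0.59 in Cloudman S91. The sarcomeric genes Myh6, Myh7, Actc1, Actn2 and Ckm and the regulators Myog and Myod1 were not listed in 4T1. Of 8 fibroblast markers, 2 were listed in 4T1, summing to FPKM 1.21, against 3.88 in B16-F1 and 22.3 in Cloudman S91, where Pdgfra had 15.6, Pdgfrb 2.04 and Col3a1 1.81. Endothelial markers summed to 0.21 in 4T1, 1.17 in B16-F1 and 11.8 in Cloudman S91, where Vwf had 11.6, while Pecam1 and Cdh5 were at 0.15 or below in every library. Leukocyte markers summed to 11.6, 3.01 and 1.15 in the same order, with the lysosomal gene Cd68 at 11.4 in 4T1 and Ptprc, which defines leukocytes, and the macrophage gene Adgre1 not listed there.

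Upstream, 23 of 25 genes of the Hippo kinases, their activators and scaffolds reached FPKM 1 in at least 1 library of each pair. The MST kinases Stk3 (FPKM 15.4 in B16-F1, 9.23 in Cloudman S91, 11.9 in 4T1) and Stk4 (22.9, 19.4 and 10.7) and the LATS kinases Lats1 (15.8, 18.3 and 14.0) and Lats2 (11.97, 17.5 and 10.8) were present in all. Mob1a, a cofactor that activates LATS, had 54.4 and 58.2 in the melanoma libraries against 6.04 in 4T1. Its paralogue Mob1b had 10.95 in B16-F1 and 11.02 in Cloudman S91 against 3.08, short of the rule on the FPKM scale. Wwc1, or KIBRA, a scaffold that promotes LATS activation, had 48.9 in 4T1, 11.6 in B16-F1 and 0.08 in Cloudman S91. Tnik, a kinase of the MAP4K group, had 15.0 in Cloudman S91 against 3.22 in B16-F1 and 0.85 in 4T1.

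By count, 1 of 23 Hippo genes (Mob1a) was higher in B16-F1 than 4T1 and 0 were lower, where 6.31% of all genes compared were higher and 7.43% lower. Wwc1 fell just short in that pair, at -1.99, and the count of lower genes was 1 under median-of-ratios scaling or a pseudocount of 0.1 and 2 under CPM, which leaves gene length out. In Cloudman S91, 2 (Mob1a and Tnik) were higher than in 4T1 and 1 (Wwc1) was lower, where 7.47% of all genes were higher and 8.01% lower. The counts of higher genes also depend on the scaling. Under TPM Mob1b passed the rule as well, narrowly for B16-F1, which raised the count in both comparisons. The list medians were 0.34 and 0.64, beside 0.03 and -0.14 over all genes compared.

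The next list holds proteins that bind or retain YAP and TAZ, compete with them for TEAD, or bind or regulate the Hippo kinases. Of 20 genes compared, 3 were higher in B16-F1 than 4T1 and 1 was lower, beside 6.31% and 7.43% of all genes. In Cloudman S91, 2 were higher than in 4T1 and 2 lower, beside 7.47% and 8.01%. With so few genes called, the counts say little about the list, whose medians were 0.43 and 0.13 beside 0.03 and -0.14 over all genes. Vgll3, a cofactor that binds TEAD in place of YAP, had 22.8 in B16-F1 against 0.08 in Cloudman S91 and 1.45 in 4T1. Vgll4, a repressor that also competes for TEAD, had 31.1 and 27.3 against 8.30, short of the rule in both comparisons on the FPKM scale. Rescaled to TPM, Vgll4 passed the rule in both. Sfn went the other way, with 21.4 in 4T1 against 1.06 in B16-F1 and 2.76 in Cloudman S91, and passed the rule in both. Wtip, an Ajuba family LIM protein that binds LATS, had 21.0 and 20.9 in the melanoma libraries and was not listed in 4T1, while its relative Ajuba had 23.3, 20.7 and 64.5. Tjp1, a tight junction scaffold, was at 0.23 in Cloudman S91 against 16.7 in B16-F1 and 18.4 in 4T1. Amotl2 is on this list too, and Ptpn14 is also on the next one.

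A signature of YAP and TAZ targets from human cancers held 18 further genes, of which 17 were in a table. Of 14 compared, 5 were higher in 4T1 than B16-F1 and 1 was lower, beside 7.43% and 6.31% of all genes. Of 13, 5 were higher in 4T1 than Cloudman S91 and 2 were lower, beside 8.01% and 7.47%. The medians, melanoma minus 4T1, were -0.98 and -0.84, beside 0.03 and -0.14 over all genes. The receptor kinase Axl had 212 in 4T1 against 0.97 in B16-F1 and 3.35 in Cloudman S91, and the stress response gene Gadd45a had 163 against 4.89 and 7.73. The ectonucleotidase Nt5e had 54.1 against 0.11 in Cloudman S91 and was not listed in B16-F1. Nuak2, a kinase, had 8.71 in 4T1 and was listed in neither melanoma table. Ptpn14, a phosphatase that binds YAP and also its target, went the other way, with 29.8 and 27.6 in the melanoma libraries against 5.05.

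AP-1 factors, which bind many enhancers together with TEAD, had 5 of 8 members higher in 4T1 than in each melanoma library, where 7.43% of all genes were higher in 4T1 than B16-F1 and 8.01% higher than in Cloudman S91. The list medians were -2.64 and -2.41, beside 0.03 and -0.14 over all genes. They included Fosl1 (199 in 4T1, 0.65 in Cloudman S91, not listed in B16-F1), Junb (208 against 8.86 and 10.2) and Atf3 (87.1 against 4.85 and 2.80). Fos was instead higher in Cloudman S91 (19.1) than in B16-F1 (2.57) and 4T1 (0.98). That was 1 of 8 genes against 4T1, beside 7.47% of all genes, and 1 of 6 against B16-F1, beside 3.19%. The count of 5 higher in 4T1 than Cloudman S91 was 4 under TPM or a pseudocount of 5. A rule of 8-fold gave 3 higher in 4T1 in each comparison.

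Cyr61, Ctgf and Ankrd1 are also known to respond to serum response factor and its MRTF coactivators, so a list of Srf, Mkl1, Mkl2 and cytoskeletal targets of that pathway was compared. Srf had 14.5, 14.8 and 18.7 and its coactivator Mkl1 had 12.8, 17.5 and 14.3. Of the 11 list genes compared, regulators included, 1 (Tagln2) was higher in 4T1 than B16-F1 by the rule, beside 7.43% of all genes. In the other direction 0 were called, beside 6.31%. Of 14, 1 (Filip1l) was higher in 4T1 than Cloudman S91 and 3 (Tagln, Myl9 and Tpm2) were higher in Cloudman S91, beside 8.01% and 7.47%. So few calls say little about this list. Myl9, a myosin light chain, had 34.8 in Cloudman S91 against 2.25 in B16-F1 and was not listed in 4T1. The part of density, AP-1 or any of these pathways in the target genes' levels was not tested.

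**Figure D4:**
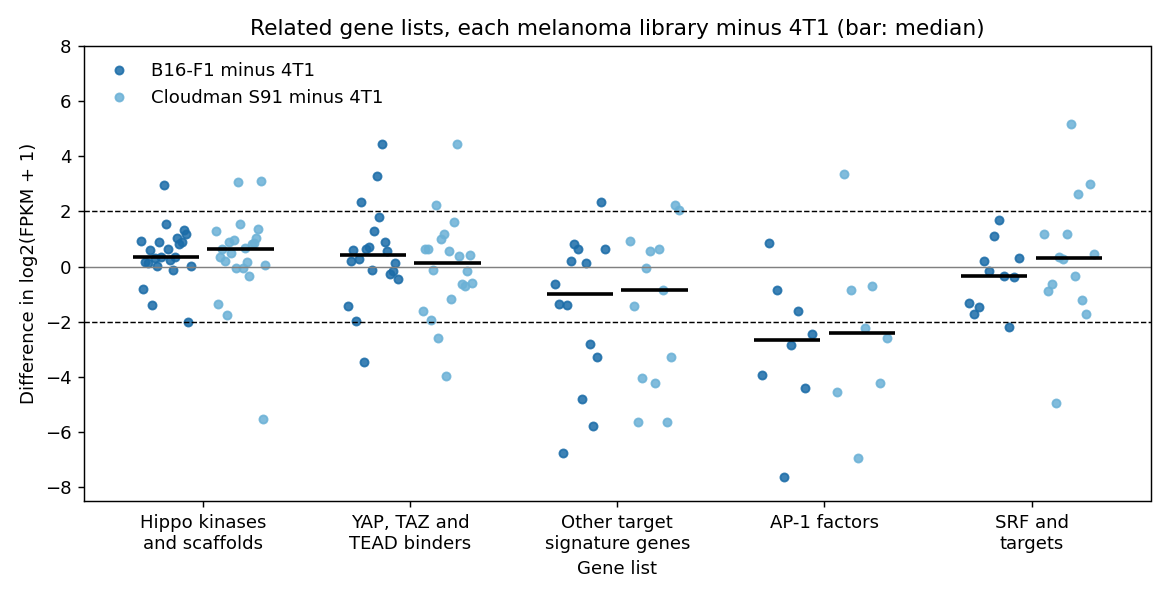
Difference in log2(FPKM + 1) of single genes (points) on 5 lists for each melanoma library minus 4T1, with black bars for list medians and dashed lines at the size rule; genes below FPKM 1 in both libraries are left out. Medians of the Hippo, binder and SRF lists lie between -0.35 and 0.64, and those of the AP-1 list at -2.64 and -2.41.

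Likeness to Ankrd1 and to Yap1 was ranked after leaving out symbols of the kind given to predicted or unnamed genes. The genes left whose levels were most like those of Ankrd1 were Cldn3, Igfbp7, Itga3, Msln and Cldn4, measured as Euclidean distance in log2(FPKM + 1) over the 3 libraries (0.18 to 0.52). All had between 162 and 269 in 4T1 and at most 0.11 in the melanoma libraries. Ankrd1 was one of 781 named genes listed for 4T1 and for neither melanoma line, of which only 6 reached FPKM 100. Closest to Yap1 were Dnajc9, Chmp3, Tsn, Map4 and Trpc4ap (0.07 to 0.14), all highest in B16-F1. With 3 points, such likeness describes these libraries only.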

How the data were processed

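Reads were filtered and processed by BGI, per the labels' design text, and HISAT, StringTie and build mm10 are named in the submitters' processing notes. The program that made the counts, and whether it used strand, are not given in the sources used here. As for units, in the authors' deposited tables, expected counts are not normalised, and the authors' deposited FPKM values are scaled to transcript length and to the depth of the table. Listed length is deposited beside them. Rows without a symbol (2.24% to 4.32% of counts) were left out, tables were joined by gene number, and a gene absent from a table was taken as 0. All 28 listed counts of the 10 genes were whole numbers (within 0.005), and their listed lengths differed between tables by a factor of at most 1.04. Wwtr1 and Ctgf overlap RefSeq noncoding genes (Gm16016 and Gm15270) that no table lists.

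A pseudocount of 1, an FPKM minimum of 1 and a log2 difference of 2 defined calls. Poisson and conditional binomial intervals (Python 3.11.15, scipy 1.17.1) cover counting error only. Gene positions are from RefSeq GRCm38.p6, the sequence of mm10, matched by gene number for all 10 genes. The 13 further lists (137 genes) and the members were chosen with earlier results of these data known. Named from each described list were the 3 genes with the largest difference in any pair, and genes named beyond these were chosen after their values were seen. The rule was tested on simulated data. These held counting error only and changes larger than the rule, so they do not bear on spread between cultures of a line. The 10 alternatives changed pseudocount, minimum, scaling, length or fold.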

Additional observations from a re-analysis of the deposited data

How the results depend on the processing

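No paired analysis was possible because each line has 1 library. The count of 3 genes higher in 4T1 than in each melanoma library held, with Ankrd1, Cyr61 and Ctgf in it, under 9 of the 10 alternatives against Cloudman S91 and under 8 against B16-F1, where a pseudocount of 0.1 added Amotl2 (difference -2.002) and gave 4. A rule of 2-fold gave 5 in each comparison, and 1 gene in each direction between the melanoma libraries in place of 0, since a lower threshold admits more genes. Differences of target genes against 4T1 kept their sign under all 10, from -1.51 (Amotl2, TPM) to -11.19 (Ankrd1, pseudocount 0.1). Small differences of factors turned under TPM, to 0.25 for Tead1 (B16-F1 minus 4T1), 0.13 for Wwtr1 and 0.34 for Tead4 (Cloudman S91 minus 4T1), and Tead4 also under median-of-ratios scaling (0.05). Over all genes, the share of calls against 4T1 that were higher in B16-F1 was 45.9%, and 56.7% under TPM (1188 and 909 genes, against 729 and 858). For Cloudman S91 it was 48.3% and 59.9% (1414 and 945, against 871 and 934). Depth limits the low genes most, Tead3 (42 counts in B16-F1) and Ctgf (67 in Cloudman S91) among them.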
